A study of Mus musculus with 9 samples.

Results

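The genes of the CDK inhibitors, the proteins that hold back the cyclin-dependent kinases of the cell cycle, were followed in macrophage lines of 3 origins. They are 8 of the 24411 gene rows of the deposited expression table, taken by symbol: Cdkn1a, Cdkn1b, Cdkn1c, Cdkn2a, Cdkn2b, Cdkn2c, Cdkn2d and the noncoding RNA gene Trp53cor1, which lies next to Cdkn1a. The set was chosen on measured values, since Cdkn1a was listed at 0 in lines BM1 and BM3 and Cdkn2a was low in line FL2. Cdkn1a and Cdkn2a are therefore described without a test, and so is Trp53cor1, since it lies beside Cdkn1a. The remaining 5 genes, which played no part in the choice, were tested between groups.

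The lines were M-CSF-dependent macrophages of C57BL/6 mice, expanded in culture without genetic modification from the yolk sac at E9.5 (YS lines), the fetal liver at E14.5 (FL lines) or adult bone marrow (BM lines). There were 3 lines in each group, each with 1 RNA-seq library, and every line was kept in 100 ng/mL recombinant human M-CSF, the growth factor that sustains macrophages. The starting cells were pooled from several mice and a line was the bulk culture of a separate dish or well, so lines of a group may share donors and the spread between them need not be that between animals. The stage of origin and the tissue changed together, and they cannot be told apart. Values are TPM, a transcript abundance relative to all transcripts of a library, which are scaled for gene length and library total and carry no read depth. A value of 0 is given as listed at 0.

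CDK inhibitors fall into a pair of families. The Cip/Kip proteins p21, p27 and p57, encoded by Cdkn1a, Cdkn1b and Cdkn1c, bind cyclin-CDK complexes broadly and act strongly on CDK2. The INK4 proteins p16, p15, p18 and p19, encoded by Cdkn2a, Cdkn2b, Cdkn2c and Cdkn2d, bind CDK4 and CDK6 and keep D-type cyclins from activating them. Cdkn2a also encodes p19ARF from a start of its own and in another reading frame, which stabilises p53 by binding MDM2, and Cdkn1a is a classical target of p53. The Cdkn2a locus is known for being switched on in mouse cells that are kept dividing in culture.

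The promoter windows of Cdkn1a and Cdkn2a, whose values chose the set, are shown. Each of these genes has a pair of annotated starts, whose transcripts a gene-level TPM adds together. Cdkn2c also has a pair, which is not printed. The windows run from 250 bases before to 50 bases after the start, 5′ to 3′ on the strand of the gene. They come from RefSeq in build GRCm38.p6. The build behind the expression table is not given in the sources used here. The first Cdkn1a window, chr17:29090729-29091028 on the + strand, holds in capitals the paired core of a p53 response element, CATGNNNNNNCATG, which begins 48 bases before the start.
Cdkn1a, upstream start: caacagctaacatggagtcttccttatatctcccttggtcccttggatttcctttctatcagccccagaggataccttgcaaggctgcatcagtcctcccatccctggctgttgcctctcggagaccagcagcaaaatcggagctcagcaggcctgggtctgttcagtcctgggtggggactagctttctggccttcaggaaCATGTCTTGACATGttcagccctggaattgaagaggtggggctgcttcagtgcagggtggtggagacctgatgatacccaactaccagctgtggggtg
The second Cdkn1a window, chr17:29093519-29093818 on the + strand, has none of these paired cores and has 2 GC boxes, GGGCGG on either strand, shown in capitals.
Cdkn1a, downstream start: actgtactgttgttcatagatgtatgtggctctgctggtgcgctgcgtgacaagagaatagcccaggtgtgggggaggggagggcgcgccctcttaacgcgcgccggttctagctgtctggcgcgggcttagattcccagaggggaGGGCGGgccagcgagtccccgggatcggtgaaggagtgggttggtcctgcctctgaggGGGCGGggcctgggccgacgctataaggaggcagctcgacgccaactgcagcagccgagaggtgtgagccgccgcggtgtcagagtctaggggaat
The first Cdkn2a window, chr4:89294570-89294869 on the - strand, lies at the upstream start, which is that of p19ARF, and holds 3 GC boxes in capitals.
Cdkn2a, upstream start: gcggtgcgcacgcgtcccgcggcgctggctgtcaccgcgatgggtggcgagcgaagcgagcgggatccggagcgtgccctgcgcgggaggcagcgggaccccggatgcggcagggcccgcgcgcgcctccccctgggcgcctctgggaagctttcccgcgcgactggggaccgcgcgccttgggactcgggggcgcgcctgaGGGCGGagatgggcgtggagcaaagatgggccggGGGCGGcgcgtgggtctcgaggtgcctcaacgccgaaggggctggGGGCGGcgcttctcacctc
The second Cdkn2a window, chr4:89282143-89282442 on the - strand, lies at the downstream start, which is that of p16, and holds 1 GC box in capitals.
Cdkn2a, downstream start: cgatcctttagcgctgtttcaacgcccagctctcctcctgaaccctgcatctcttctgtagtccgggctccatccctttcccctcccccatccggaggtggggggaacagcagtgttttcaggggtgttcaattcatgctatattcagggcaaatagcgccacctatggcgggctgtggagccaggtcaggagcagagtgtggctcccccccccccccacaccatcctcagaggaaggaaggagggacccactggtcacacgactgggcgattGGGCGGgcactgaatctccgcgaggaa
Among all 32851 promoter windows of the RefSeq table, 0.712% held the paired p53 core and 35.7% held a GC box. The E2F-type motif TTTNNCGC, searched on both strands, was in 5.17% of all windows, and it occurred once in each Cdkn2a window and in no other window of a member. It overlapped no GC box. RefSeq windows were at hand for 6 of the 8 members, and the paired p53 core was in the upstream Cdkn1a window alone among their 9 windows. A match describes the letters of the window and is no evidence of binding.

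The libraries carried macrophage markers throughout, with the summed TPM of 8 markers from 4215 to 9309 in YS lines, from 11786 to 28521 in FL lines and from 11717 to 13300 in BM lines. Lyz2 was the largest of them in every line, from 1163 to 21976 TPM. Fcgr1 was low in BM lines, at 5.47, 42.1 and 1.68 TPM in BM1, BM2 and BM3, beside 110 to 330 TPM in YS and FL lines. Markers of fibroblasts, B cells and T cells stayed low in all lines, at summed levels of at most 2.63 TPM. The 4 endothelial markers summed to between 5.37 and 56.0 TPM in YS lines, between 18.9 and 51.8 TPM in FL lines and between 0.08 and 1.70 TPM in BM lines, with Kdr the main component in all YS and FL lines but YS1 and Tek at most 0.04 TPM. The neutrophil markers reached 25.1 TPM through S100a8 in FL2, with S100a9 and Elane listed at 0 in every line, and the hepatocyte markers reached 20.6 TPM through Afp in FL3. Line BM2 stood apart from BM1 and BM3: the erythroid marker Hba-a1 was 215 TPM in it and 0.30 TPM in each of the others. Line BM2 also held low levels of genes that BM1 and BM3 lacked. Of 44 genes outside the CDK inhibitors with under 0.5 TPM in BM1 and BM3 and at least 20 TPM in YS2, 41 reached 1 TPM in BM2, at a median of 14.3% of the YS2 level with quartiles of 10.3% and 17.7%.

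Cdkn1a, which encodes p21, ran from a listed 0 to 466 TPM over the 9 lines. Its TPM was 23.98, 81.4 and 83.5 in YS1, YS2 and YS3, and 69.7, 466 and 388 in FL1, FL2 and FL3. In the BM lines it was listed at 0 in BM1, 11.5 in BM2 and listed at 0 in BM3. Every YS and FL line was above every BM line, and the lowest YS line had 23.98 TPM against 11.5 in the highest BM line. The values of BM1 and BM3 were part of the choice of the set. Among the 11753 genes that reached 1 TPM in 3 or more libraries, 49.0% separated YS from BM lines without overlap. Between FL and BM lines, 49.5% did. YS1 was lowest among the YS lines and FL1 among the FL lines, where the highest line was 6.69 times the lowest. The BM2 level of Cdkn1a was 14.1% of that in YS2, beside the median of 14.3% for the 44 genes above. With genes chosen in the same way against another line, Cdkn1a and the median lay apart, at 48.0% beside 3.23% for YS1, 13.8% beside 6.54% for YS3 and 16.5% beside 7.96% for FL1. Against FL2 and FL3 Cdkn1a lay below the median, at 2.47% beside 5.86% and 2.97% beside 8.46%. The summed endothelial markers were also higher in every YS and FL line than in every BM line, as given above. The part of BM2 as a library and of these markers in the Cdkn1a levels was not tested. Without BM2, Cdkn1a was listed at 0 in every remaining BM line.

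Trp53cor1, which is also called lincRNA-p21 and is transcribed away from Cdkn1a on the other strand, was low in every line. It was 0.18, 0.87 and 1.13 TPM in the YS lines, 0.89, 2.49 and 1.07 TPM in the FL lines, and listed at 0, 0.09 and 0 in BM1, BM2 and BM3. FL2 was the highest line and BM1 and BM3 were at 0 for both Trp53cor1 and Cdkn1a, and the YS and FL lines overlapped for both. Trp53cor1 reached 1 TPM in 3 libraries.

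The other expressed genes around the pair did not share this pattern. Srsf3, a splicing factor gene, and Stk38, a kinase gene, lie on the Trp53cor1 side and were between 195 and 298 TPM and between 62.2 and 115 TPM over the 9 lines. Ppil1, a peptidyl-prolyl isomerase gene on the other side, was between 67.8 and 87.6 TPM. In BM1, where Cdkn1a was listed at 0, the levels of Srsf3, Stk38 and Ppil1 were 265, 115 and 69.9 TPM. Rab44 and Cpne5, which lie between Cdkn1a and Ppil1, were at most 1.46 TPM in any line.

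**Figure D1:**
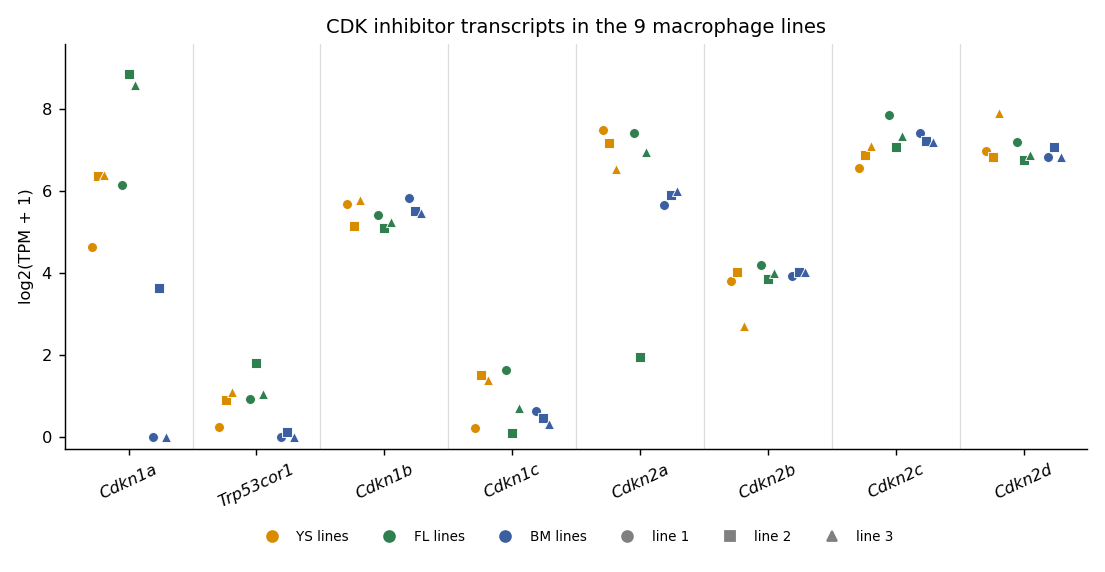
Level of each CDK inhibitor gene as log2(TPM + 1) in the 9 lines, with colour for the group (YS, FL, BM) and marker shape for the line number; each point is 1 library. Cdkn1a spans from 0 in BM1 and BM3 to 466 TPM in FL2 and Cdkn2a drops to 2.86 TPM in FL2, whereas Cdkn1b, Cdkn2c and Cdkn2d lie close together in all groups.

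Cdkn1b, which encodes p27, was present in all lines, between 33.2 and 55.8 TPM. It was 50.9, 34.2 and 54.2 TPM in the YS lines, 42.1, 33.2 and 37.0 TPM in the FL lines, and 55.8, 44.8 and 43.2 TPM in the BM lines. The means were 46.4 ± 10.7 (SD, n = 3) TPM for YS, 37.4 ± 4.49 (SD, n = 3) TPM for FL and 48.0 ± 6.85 (SD, n = 3) TPM for BM lines. The FL lines lay just below the BM lines without overlap, and the YS lines overlapped both. Cdkn1c, which encodes p57 and is imprinted, was near the filter of 1 TPM. It was 0.15, 1.85 and 1.60 TPM in the YS lines, 2.08, 0.07 and 0.63 TPM in the FL lines, and 0.55, 0.37 and 0.24 TPM in the BM lines. It passed the filter through YS2, YS3 and FL1 alone, and the groups overlapped.

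Cdkn2a was expressed in every line and was low in FL2 alone. Its TPM was 180, 143 and 92.2 in the YS lines, 171, 2.86 and 123 in FL1, FL2 and FL3, and 49.9, 59.5 and 63.8 in the BM lines. The FL2 value was 59.8 times below that of FL1. Every YS line and both other FL lines lay above all BM lines, whose mean was 57.7 ± 7.09 (SD, n = 3) TPM. YS and BM lines were without overlap for 49.0% of the 11753 genes tested. FL and BM lines overlapped through FL2, whose value was part of the choice of the set. The table adds p16 and p19ARF transcripts, so it does not show which of the starts printed above was in use.

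The expressed genes beside Cdkn2a were not low in FL2 to this extent. Mtap, an enzyme of methionine salvage next to Cdkn2a on its downstream side, was 71.4 TPM in FL2 against 73.0 in FL1 and 60.8 in FL3. Cdkn2b, the next gene on the upstream side, was 13.5 TPM in FL2 against 17.5 and 15.0 TPM. The remaining annotated neighbours, Gm12603, Mir31, Dmrta1 and Zfp352, were at most 0.04 TPM in every line.

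Cdkn2b, which encodes p15, was the least abundant INK4 gene in every line but FL2. It was 12.9, 15.2 and 5.48 TPM in the YS lines, 17.5, 13.5 and 15.0 TPM in the FL lines, and 14.3, 15.4 and 15.3 TPM in the BM lines. YS3 was low and the other 8 lines lay between 12.9 and 17.5 TPM. Cdkn2c, which encodes p18, was 93.4, 117 and 138 TPM in the YS lines, 231, 134 and 162 TPM in the FL lines, and 172, 150 and 146 TPM in the BM lines. All YS lines were below all BM lines, and FL1 was the highest of all. Cdkn2d, which encodes p19INK4d, was 127, 113 and 239 TPM in the YS lines, 147, 108 and 117 TPM in the FL lines, and 113, 135 and 112 TPM in the BM lines. YS3 was high and the other 8 lines lay between 108 and 147 TPM.

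The mix of inhibitors differed between lines, and it holds Cdkn1a and Cdkn2a, whose values chose the set. The summed TPM of the 7 protein-coding members was 488, 506 and 614 in YS lines, 681, 758 and 843 in FL lines, and 406, 417 and 381 in BM lines. Without Cdkn1a, the sums were from 424 to 530 in YS lines, from 292 to 611 in FL lines and from 381 to 406 in BM lines. The Cip/Kip genes made up 65.9% of the sum in FL2 and 50.5% in FL3, but 16.7% in FL1, and from 15.4% to 23.2% in YS lines. In BM lines their share was from 11.4% to 13.9%, and it was mainly Cdkn1b, with 2.76% of the sum from Cdkn1a in BM2. Cdkn1a alone was 61.5% of the sum in FL2, where Cdkn2a was 0.377%. In the BM lines Cdkn2c was the largest component, with 42.4%, 36.0% and 38.3% in BM1, BM2 and BM3. Cdkn2a was largest in YS1 and YS2, with 36.9% and 28.3%, and Cdkn2d was largest in YS3, with 39.0%.

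**Figure D2:**
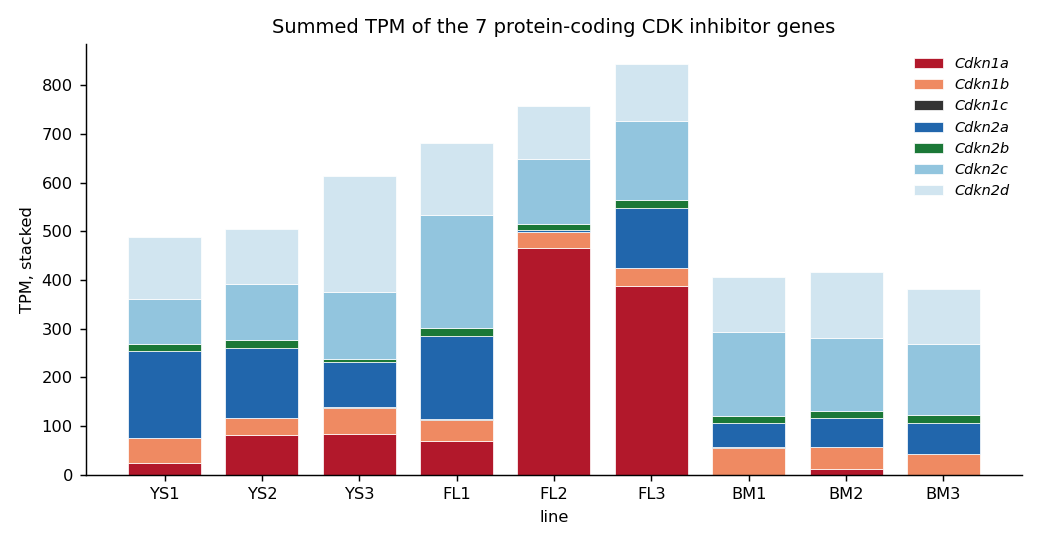
Stacked TPM of the 7 protein-coding CDK inhibitor genes in each of the 9 lines, starting from 0, with colour for the gene. With Cdkn1a, whose values took part in the choice of the set, the sums of FL lines, from 681 to 843, are above those of all other lines. Without Cdkn1a they run from 292 in FL2 to 611 in FL1, beside 424 to 530 in YS lines. The red Cdkn1a part fills 61.5% of FL2 and 46.0% of FL3 and is missing in BM1 and BM3.

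The 5 members other than Cdkn1a, Cdkn2a and Trp53cor1 were compared between origins with limma on log2(TPM + 1). The fit covered the 11753 genes that reached 1 TPM in 3 or more of the 9 libraries. All 8 members passed this filter. A gene was called at a Benjamini-Hochberg adjusted p under 0.1 and a change over 2-fold. Of the 5 tested members, 0 were called between YS and BM lines, where 12.8% of all tested genes were called. None was called between FL and BM lines, where 10.3% of all genes were called, or between YS and FL lines, where 3.79% were called. At an unadjusted p under 0.05 there were 0, 0 and 1 members in these comparisons, from the same limma fit. The median difference of the 5 members was -0.06 between YS and BM lines, beside 0.11 over all tested genes, and 0.04 beside 0.09 between FL and BM lines. It was 0.22 beside 0.02 between YS and FL lines.

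Cdkn2c came closest to a difference. Its log2 difference for YS minus FL lines was -0.58 ± 0.21 (SE, limma, unadjusted p = 0.0243, adjusted p = 0.137), with a 95% interval from -1.06 to -0.09. Between YS and BM lines its difference was -0.44 with an interval from -0.92 to 0.04 (limma, adjusted p = 0.152). The groups did not overlap there, as was the case for 49.0% of all tested genes. Between FL and BM lines Cdkn2c differed by 0.14, with an interval from -0.34 to 0.62. For Cdkn1b in YS against BM lines the interval ran from -0.50 to 0.37. In FL against BM lines, where its groups did not overlap, as was so for 49.5% of all genes, the interval was -0.78 to 0.09. In YS against FL lines it was -0.15 to 0.72. No member tested was separated without overlap between YS and FL lines, where 26.1% of all genes were. These intervals leave out a 2-fold difference of Cdkn1b in all 3 comparisons.

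For Cdkn2d the interval was -0.27 to 0.93 in YS against BM lines, -0.56 to 0.64 in FL against BM lines and -0.31 to 0.89 in YS against FL lines. A 2-fold change is outside each of them. Those of Cdkn2b were wider, at -1.19 to 0.20 when YS were set against BM lines and -1.22 to 0.18 when YS were set against FL lines, and both hold a 2-fold lower level in YS lines. Without YS3 these differences of Cdkn2b went from -0.50 to -0.09 and from -0.52 to -0.12. For FL against BM lines the interval of Cdkn2b was -0.67 to 0.72. Cdkn1c had the widest intervals, from -0.49 to 1.62 for YS against BM lines, from -0.71 to 1.40 for FL against BM lines and from -0.84 to 1.28 for YS against FL lines.

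**Figure D3:**
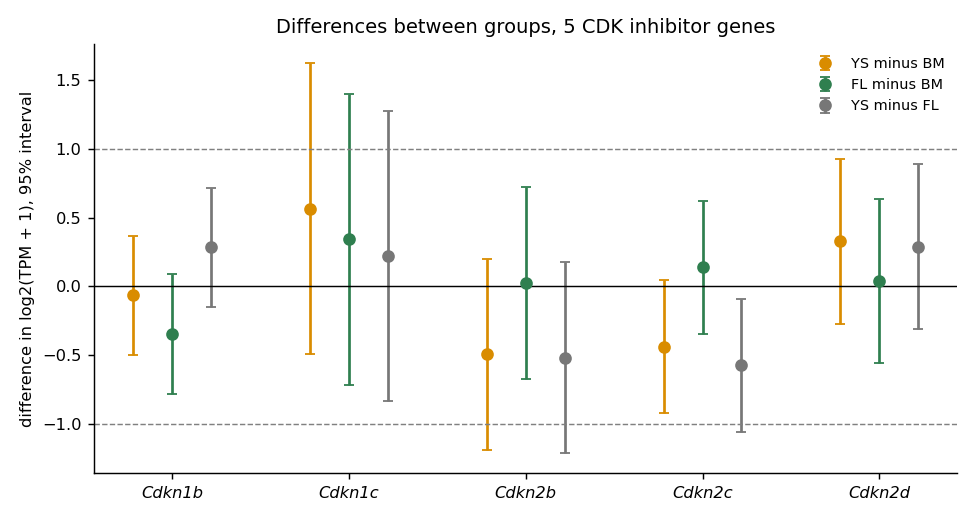
Difference in mean log2(TPM + 1) between groups for the 5 tested CDK inhibitor genes, with limma's 95% intervals as bars, 3 lines a group and dashed lines at 2-fold in either direction. All 15 estimates lie within 2-fold, and the Cdkn2c interval between YS and FL lines, from -1.06 to -0.09, is the only one that does not include 0.

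Position along the chromosome was set beside the members' differences within a group. For each line, the difference in log2(TPM + 1) from the mean of the other lines of its group was taken for a member and for up to 50 tested genes closest to it in RefSeq order. Cdkn2d and the genes around it departed in the same direction in the lines where Cdkn2d stood out. In YS3 it was 0.99 above the other YS lines and the surrounding genes were 0.64 above at the median, in YS2 the values were -0.62 and -0.58, and in FL1 they were 0.39 and 0.41. In YS1 they were -0.37 and -0.09. Each line is set against the others of its group, so the values within a group are not independent. Cdkn1b and its surroundings had -0.60 and -0.36 in YS2. Cdkn2a and Cdkn1a departed without theirs. Cdkn2a was -5.24 in FL2 where the genes around it were 0.04, and Cdkn1a was -2.59 in FL1 beside 0.14 and -1.74 in YS1 beside 0.31. Cdkn2b was -1.21 in YS3 beside 0.27. Cdkn2c was 0.65 in FL1 beside -0.02 and -0.53 in FL2 beside 0.03. In YS1 and YS3 it went in the direction of its surroundings, at -0.44 beside -0.11 and 0.40 beside 0.27.

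**Figure D4:**
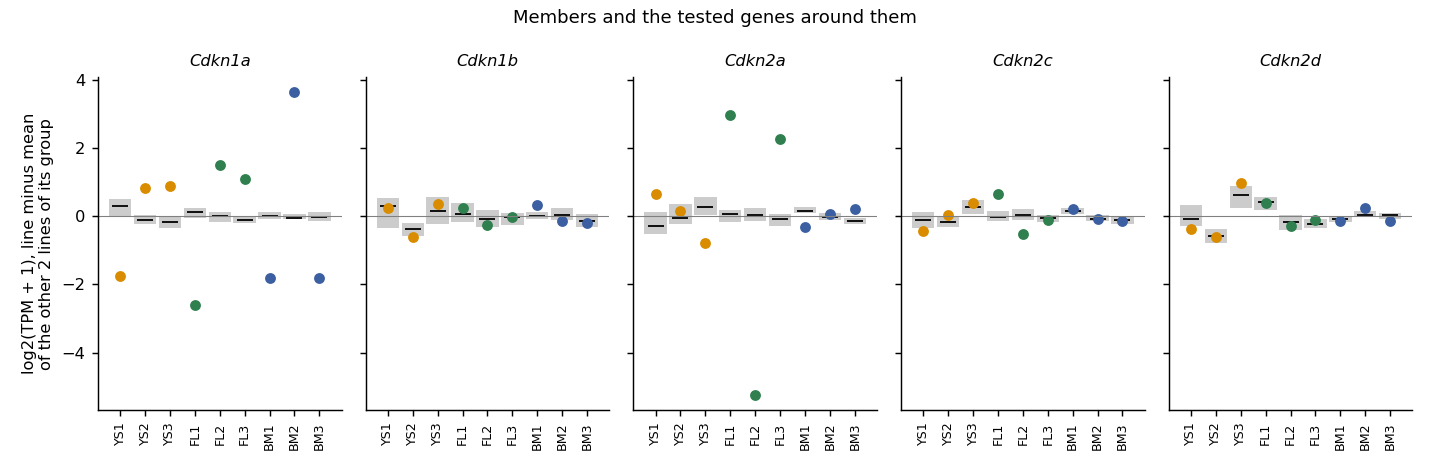
For 5 CDK inhibitor genes, the difference in log2(TPM + 1) between a line and the mean of the other lines of its group (points, coloured by group) and the same for the tested genes around the member (black dash for the median, grey bar from the lower to the upper quartile). In YS3, Cdkn2d is at 0.99, in the same direction as the median of 0.64 around it but above their upper quartile of 0.895. Cdkn2a is at -5.24 beside 0.04 in FL2.

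The kinases that INK4 proteins bind, and their D-type cyclins, were compared in the same way. The list of cyclins and CDKs had 16 tested genes, of which 3 were higher and 0 lower in YS than in BM lines, where 7.57% of all genes were higher and 5.22% lower. Between FL and BM lines 2 were higher and 0 lower, beside 6.01% and 4.30% of all genes, and between YS and FL lines 0 were called in either direction, beside 1.95% higher and 1.85% lower. Ccnd2, a D-type cyclin gene, was 132, 102 and 247 TPM in YS1, YS2 and YS3 and 107, 96.2 and 45.5 TPM in FL1, FL2 and FL3. In the BM lines it was listed at 0 in BM1, 14.0 in BM2 and 0.10 in BM3, and it was called in both comparisons (limma, adjusted p = 0.00442 for YS and 0.00837 for FL lines).

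Ccnd3, a further D-type cyclin gene, was 123, 107 and 149 TPM in the YS lines, 145, 200 and 175 TPM in FL lines and 49.9, 55.9 and 49.0 TPM in BM lines. It was higher by 1.27 ± 0.16 in YS lines and by 1.72 ± 0.16 in FL lines on the log2 scale (SE, limma, adjusted p = 0.00195 and 0.000531). Ccnd1 was from 708 to 1014 TPM in YS lines, from 768 to 804 TPM in FL lines and from 389 to 477 TPM in BM lines. Its differences from BM lines, 0.97 for YS and 0.90 for FL lines, stayed under 2-fold (limma, adjusted p = 0.00346 and 0.00415). Ccne1, the cyclin E1 gene of CDK2, was higher in YS than in BM lines by 1.14 ± 0.18 (SE, limma, adjusted p = 0.00442), and by 0.995, just under 2-fold, without YS1. Cdk4 was from 303 to 416 TPM in YS lines, from 308 to 353 TPM in FL lines and from 254 to 266 TPM in BM lines, and Cdk6 was from 28.7 to 63.9 TPM over all lines. Neither kinase was called in any comparison, with all differences under 2-fold. Cdk4 was higher by 0.40 in YS and by 0.35 in FL than in BM lines (limma, adjusted p = 0.0509 and 0.0920). For Cdk6 these differences were 0.66 and 0.47 (limma, adjusted p = 0.0390 and 0.137). The summed INK4 TPM was from 0.90 to 1.23 times that of Cdk4 and Cdk6 in YS lines and from 1.16 to 1.23 times in BM lines. In FL lines it was 1.40 times in FL1, 0.75 times in FL2 and 1.11 times in FL3. This sum counts all Cdkn2a transcripts, also those of p19ARF, so it is not the level of INK4 transcripts alone. The Cdkn2a value of FL2 took part in the choice of the set.

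The p53 list, which holds Trp53 and 31 regulators and targets of it other than Cdkn1a, had 31 tested genes. Of these, 10 were lower and 1 was higher in YS than in BM lines, where 5.22% of all tested genes were lower and 7.57% higher. Against the BM lines, FL lines had 9 lower and 1 higher, beside 4.30% and 6.01% of all genes. Both counts of lower genes include Eda2r, which passed the filter only through the BM lines, where it is high. Between YS and FL lines 1 was higher and 0 lower, beside 1.95% and 1.85%, and this count was 4 without FL1 and 2 without YS2. The median difference of the list was -0.63 between YS and BM lines and -0.60 between FL and BM lines, beside 0.11 and 0.09 over all tested genes. YS and FL lines were compared with the same BM lines, so the counts of these comparisons are not independent. Without BM1, BM2 or BM3, where Eda2r no longer passed the filter, 8, 9 and 8 genes of the list were called between YS and BM lines and 7, 8 and 8 between FL and BM lines.

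Trp53, which encodes p53, was 266, 214 and 183 TPM in the YS lines, 192, 121 and 154 TPM in FL lines and 89.4, 110 and 98.04 TPM in BM lines. It was higher in YS than in BM lines by 1.14 ± 0.19 (SE, limma, adjusted p = 0.00518), and it was the only list member called higher there. Without YS1 its difference was 0.998, just under 2-fold, and it was not called. Its difference of 0.63 between FL and BM lines was under 2-fold. Mdm2, the ubiquitin ligase that removes p53 and is itself a p53 target, was 37.8, 39.9 and 56.7 TPM in the YS lines, 52.5, 84.8 and 171 TPM in FL lines and 200, 159 and 167 TPM in BM lines. It was lower in YS than in BM lines by a difference of -1.96 ± 0.37 (SE, limma, adjusted p = 0.00761). FL3 lay within the range of the BM lines, and the FL difference of -0.93 was not called (limma, adjusted p = 0.116).

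Phlda3, a p53 target that restrains AKT, was listed at 0 in all YS lines, was 0.23, 16.9 and 0.43 TPM in FL1, FL2 and FL3, and was 107, 89.99 and 97.5 TPM in BM lines. Eda2r, a receptor gene of the TNF receptor family, was listed at 0 in all YS lines and in FL1 and FL3, was 0.16 TPM in FL2, and was 13.8, 9.87 and 11.3 TPM in BM lines. Both were lower in YS and in FL than in BM lines (limma, adjusted p = 0.00228 and 0.00557 for Phlda3, 4.53e-05 and 5.96e-05 for Eda2r), and no fold is given against groups listed at 0. Eda2r passed the filter only through the 3 BM lines, where it is high, so it was bound to differ and had no fit without a BM line. Psrc1, a microtubule-binding protein gene, was lower in YS than in BM lines by -2.88 ± 0.51 (SE, limma, adjusted p = 0.00596). Pmaip1, which encodes the cell death protein NOXA, was from 41.1 to 57.1 TPM in YS lines, from 3.30 to 7.51 TPM in FL lines and from 76.6 to 111 TPM in BM lines. It was lower in FL than in BM lines by -3.90 ± 0.26 and higher in YS than in FL lines by 2.90 ± 0.26 (SE, limma, adjusted p = 0.000123 and 0.00255). Sesn1, a stress protein that restrains mTORC1, was the member that was higher in FL than in BM lines, by 1.21 ± 0.30 (SE, limma, adjusted p = 0.0249).

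**Figure D5:**
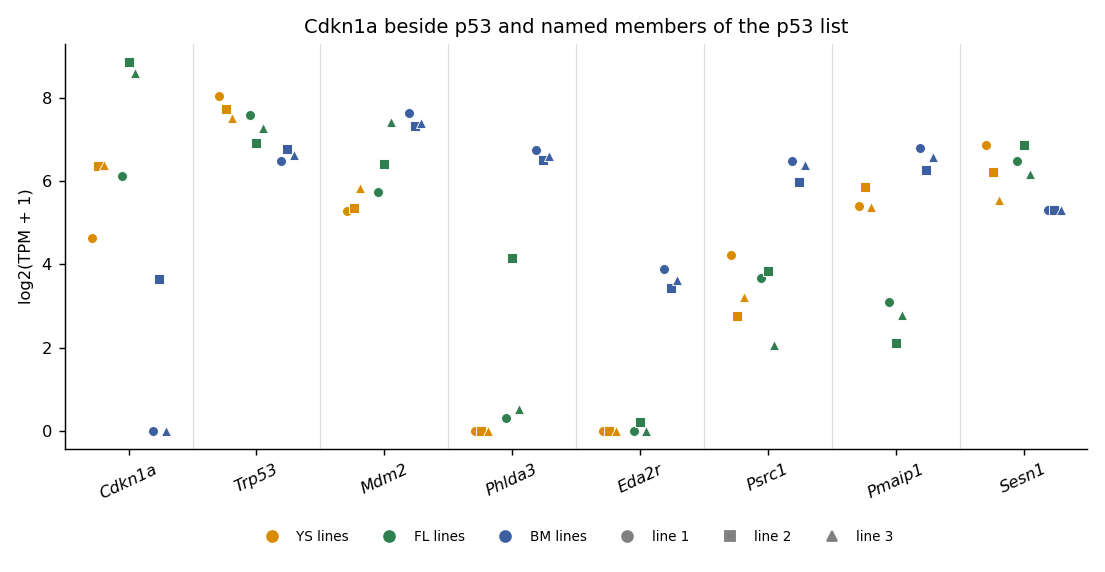
Level of Cdkn1a, Trp53 and 6 genes of the p53 list as log2(TPM + 1) in the 9 lines, with colour for the group and marker shape for the line number; each point is 1 library. Cdkn1a is lowest in BM lines, at 0 in BM1 and BM3, where Phlda3 is from 89.99 to 107 TPM and Eda2r from 9.87 to 13.8 TPM.

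Line FL2, which had the highest Cdkn1a and the lowest Cdkn2a, was the highest of the FL lines for 20 of the 31 tested genes of the p53 list, or 64.5%, beside 34.0% of all tested genes. FL1 was highest for 6 and FL3 for 5. In the other groups BM1 was highest for 17 of the 31, beside 36.2% of all genes, and YS1 for 14, beside 44.1%. These are differences of 1 library from the other 2 lines and were not tested.

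Of 28 tested regulators of CDK inhibitor transcription, 4 were higher and 1 was lower in YS than in BM lines, 4 were higher and 0 lower in FL than in BM lines, and 0 were higher and 2 lower in YS than in FL lines. Called in either direction, 5, 4 and 2 of the 28 stand beside 12.8%, 10.3% and 3.79% of all tested genes. The count between FL and BM lines was 2 without FL2 and 2 without BM3, and that between YS and FL lines was 5 without YS2, 3 without YS3 or FL1 and 1 without any other line. Between YS and BM lines it was 3 without BM3. Maf, a macrophage transcription factor gene, was from 188 to 286 TPM in YS lines, from 241 to 407 TPM in FL lines and 23.0, 51.4 and 17.4 TPM in BM lines. It was higher by 2.97 ± 0.37 in YS and 3.41 ± 0.37 in FL than in BM lines (SE, limma, adjusted p = 0.00201 and 0.000987). Ets2, a factor known to act on INK4 promoters, was higher by 1.89 ± 0.34 and 1.49 ± 0.34 (SE, limma, adjusted p = 0.00659 and 0.0172). Smad3, a TGF-β signal carrier, was higher in YS than in BM lines by 2.07 ± 0.35 (SE, limma, adjusted p = 0.00537). Id1, which antagonises E proteins and ETS factors at the p16 promoter, was lower in YS than in FL lines by -1.52 ± 0.22 (SE, limma, adjusted p = 0.0157). Cebpa, a myeloid factor, was called higher in FL than in BM lines by 1.51 ± 0.48 (SE, limma, adjusted p = 0.0599). Klf4, a zinc finger factor that acts on the p21 promoter, was called lower in YS than in BM lines by -1.14 ± 0.44 and than in FL lines by -1.51 ± 0.44 (SE, limma, adjusted p = 0.0865 and 0.0827). These calls of Klf4 were lost in 10 and 9 of 18 alternative settings, with differences of -0.52 and -0.90 without YS1, and that of Cebpa in 5, among them each fit without a BM line.

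Of 13 tested pocket protein and E2F genes, which carry the signal below the CDKs, 1 was called between YS and BM lines, beside 12.8% of all tested genes, and 0 in the other comparisons. This was E2f5, lower in YS than in BM lines by -1.05 ± 0.34 (SE, limma, adjusted p = 0.0481), a call that was lost in 5 of 18 alternative settings, among them each fit without YS3 or a BM line. The count between FL and BM lines was 1 without FL1. Of 13 tested genes that turn over the inhibitor proteins, 1 was likewise called between YS and BM lines, beside the same 12.8%, and 0 in the other comparisons. Skp2, the F-box protein that marks p27 for destruction, was 71.6, 45.9 and 33.8 TPM in the YS lines, 34.2, 27.0 and 31.4 TPM in FL lines and 18.9, 19.2 and 17.5 TPM in BM lines. It was higher in YS than in BM lines by 1.33 ± 0.24 (SE, limma, adjusted p = 0.00639). The Cdkn1b transcript was not called, and the level of the p27 protein, on which Skp2 acts, is not shown by RNA.

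The genes most like Cdkn1a over the 9 lines, by Pearson's r of log2(TPM + 1) among tested genes, were Gramd3 (r = 0.993), Lst1 (r = 0.989), Gas6 (r = 0.974), Spry2 (r = 0.973) and Gbx2 (r = 0.972). The points share their libraries, and the r values are a description. Lst1, a myeloid transmembrane protein gene, was from 175 to 260 TPM in YS lines, from 196 to 382 TPM in FL lines and 50.8, 110 and 62.5 TPM in BM lines. Gas6, the ligand of the TAM receptors with which macrophages bind apoptotic cells, was from 780 to 922 TPM in FL lines and 21.1, 92.6 and 12.2 TPM in BM lines. Gbx2 was 0.07, 0.46 and 0 TPM in BM1, BM2 and BM3. That Cdkn1a was listed at 0 in BM1 and BM3 was part of the choice of the set, so genes chosen for likeness to it are low there by the choice. Like Cdkn1a, all of these genes were higher in BM2 than in BM1 and BM3, and the part of BM2 as a library was not tested.

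The genes most like Cdkn2a were Minos1 (r = 0.979), Peg13 (r = 0.973), Emc1 (r = 0.966), Cep170 (r = 0.957) and Mrpl20 (r = 0.955). Since the FL2 value dominates the Cdkn2a pattern, genes chosen for likeness to it are low in FL2 by the choice. Peg13, an imprinted noncoding RNA gene, was 0.06 TPM in FL2 and from 3.69 to 9.49 TPM in the other lines. Minos1, a gene of mitochondrial inner membrane organisation, was 26.3 TPM in FL2 and from 44.2 to 63.7 TPM elsewhere. Minos1, Emc1 and Mrpl20 lie on chromosome 4, as do Cdkn2a, Cdkn2b and Cdkn2c.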

How the data were processed

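RNA-seq libraries of 3 YS, 3 FL and 3 BM lines were analysed from the deposited gene table, in which the authors give TPM to 2 decimals. Libraries were poly(A)-selected, stranded and read as 75 nt single reads. The submitters' processing notes name Trim Galore 0.6.6, STAR 2.7.9a and RSEM 1.3.3, while build and annotation are not given in the sources used here. No counts were used, so depth is unknown and no counting error is given, and the spread between lines is the only error. Groups follow the sample labels.

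Differences were tested with limma 3.58.1 in R 4.3.3 on log2(TPM + 1), with a mean-variance trend over all 9 libraries and Benjamini-Hochberg adjustment within each comparison. Fold changes of low genes are understated on this scale. The script was tested on simulated data. The members and gene lists were chosen with earlier results of these data known. From each list, called genes without overlap were named, up to 3 in each direction per comparison, with D-type cyclins, Cdk4, Cdk6, Trp53 and Mdm2, 3 annotated neighbours on either side of Cdkn1a and Cdkn2a, and the 5 genes closest in pattern to each. Gene order and promoters came from RefSeq (GRCm38.p6), where 11706 of the 11753 tested genes were found. Alternatives were pseudocounts, filters, scalings, thresholds, fits on 6 libraries, a replicate block and leaving out each line.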

Additional observations from a re-analysis of the deposited data

How the results depend on the processing

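TPM carries no read depth, so counting error is unknown, and 3 lines a group leave wide intervals. None of the 5 tested members was called in any setting in which it was tested. Cdkn1c had no fit with a filter of 5 TPM or without YS2, YS3 or FL1. Without a fold threshold, 4455 genes of the whole table were called for YS against BM lines, 3247 for FL against BM and 1500 for YS against FL lines. The last comparison had 446 calls at the reported thresholds, and it had 280 with a pseudocount of 4, 81 from the 6 libraries compared and 234 at an adjusted p under 0.05. With a line left out, it had from 175 to 549 calls, with 175 without FL2, 178 without FL3, 285 without BM1 and 294 without BM3. Quantile normalization moved the median of all genes between YS and BM lines from 0.11 to -0.01 and the calls from 890 higher and 614 lower to 724 higher and 763 lower, while the p53 list went from 10 to 11 lower calls. List counts moved by over 1.5 times in 38 of 300 recomputed counts.

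Uncalled member differences near 0 changed sign. Between FL and BM lines, Cdkn2b was -0.072 and Cdkn2d -0.032 with quantile normalization, and they were -0.066 and -0.055 with median-of-ratios scaling. With a line left out, Cdkn1b ran from -0.19 to 0.14 for YS minus BM, Cdkn1c from -0.13 to 0.64 for YS minus FL in 6 fits, and Cdkn2b from -0.069 to 0.11 and Cdkn2c from -0.077 to 0.31 for FL minus BM. Cdkn2d ran from -0.0027 to 0.53 for YS minus BM, from -0.089 to 0.13 for FL minus BM and from -0.042 to 0.50 for YS minus FL. None of these was called, and the cause was not tested.

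The line numbers are shared between groups, but the sources name no pairing. Deviations of same-numbered lines from their group means had correlations from -0.12 to 0.09, and those of differently numbered lines from -0.14 to 0.12. These values show no pairing by number, but they cannot tell whether lines shared a batch, which was not tested. With a replicate block, 1503, 1191 and 409 genes were called between YS and BM, FL and BM, and YS and FL lines, with 0 members in each. Of the named genes in the lists, Trp53 and Ccne1 fell just under 2-fold without YS1, at 0.998 and 0.995, and Klf4, Cebpa and E2f5 lost calls as given above.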

Other observations

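The last stretch of chromosome 4 was low in line FL2, the line with low Cdkn2a. The tested genes of chromosome 4 were put in RefSeq order (GRCm38.p6) and cut into 10 equal parts. In the last 3 parts, 185 of 218 genes were lower in FL2 than the mean of FL1 and FL3 in log2(TPM + 1), at a median difference of -0.77, which is 0.585 times the level. In the first 7 parts, 238 of 510 genes were lower and the median was 0.02. Cdkn2a and Cdkn2b lie in part 4 and Cdkn2c in part 5, where the medians were 0.02 and 0.04. Of the genes most like Cdkn2a, Minos1 and Emc1 lie in part 8 and Mrpl20 in part 10, and their low values in FL2 are fixed by that choice. The pattern was seen in 1 line and was not tested.

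For Cdkn2d, which lies on chromosome 9, the genes around it were 0.64 higher in YS3 than in the other YS lines at the median, whereas the median of all 641 tested genes of that chromosome was 0.08. In FL1 the genes around it were 0.41 higher and the whole chromosome 0.32 higher than in the other FL lines.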
